A study of Mus musculus with 6 samples.

Results

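The Siglecs are receptors of the immunoglobulin superfamily that bind sialic acid, the acidic sugar at the outer end of many glycan chains. The members described here are the genes Siglec1, Cd22, Cd33, Mag, Siglece, Siglecf, Siglecg and Siglech, taken from a list of 8 names through the RefSeq accession that each probe set carries. All 8 were measured, with 10 of the 1246 probe sets of the array, and they are 8 of its 909 named genes. Siglech had 3 probe sets and every other member had 1. The list was drawn up by gene family, with earlier results of these data known.

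The study set 3 livers of male mice with insulin-deficient diabetes beside 3 livers of healthy wildtype males, on an array devoted to glycan-related genes, and its stated interest was in lower glycosaminoglycan enzymes and plasma lipids. The labels give no strain or age and do not say how insulin deficiency was brought about. They number the samples of each group 1 to 3 without saying what a number stands for or that each came from a separate animal, so the p-values measure the spread between these samples, which may be technical. The liver markers were bright: Asgr1, a subunit of the hepatocyte asialoglycoprotein receptor, had log2 signals of 12.36, 12.27 and 12.32 in diabetic livers and 12.19, 12.46 and 12.31 in wildtype livers. The array medians lay between 4.93 and 5.06. Whole liver was measured, so fewer cells of a type and less RNA per cell cannot be told apart.

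A Siglec binds its sugar with an outermost V-set domain, and most members carry tyrosine motifs in their tails that recruit phosphatases and dampen signalling in the cell that bears them. The family is mainly one of white blood cells. Siglec1 (sialoadhesin) marks tissue macrophages, Cd22 and Siglecg restrain B cell receptor signalling, and Cd33 and Siglece are found on myeloid cells. Siglecf is known from eosinophils and Siglech from plasmacytoid dendritic cells, where it signals through an activating adaptor. Mag is the exception, an adhesion protein of myelin-forming glia. In the RefSeq gene order Cd22 and Mag are direct neighbours with 0 protein-coding genes between them, as are Siglecf and Siglecg, while Siglec1 lies on another chromosome.

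No Siglec passed the test for a difference between diabetic and wildtype liver. The 8 genes fell into 3 levels of signal, with Cd22 and Mag above the array median, Siglece, Siglecg and Siglec1 near it, and Cd33, Siglech and Siglecf below the lower quartile of every array. Differences, as diabetic minus wildtype on the log2 scale, ran from -0.12 for Mag to 0.08 for Siglecf. The clearest excursion of a single array was Cd33 on the array of diabetic 3, which also had the highest signals of 5 of 7 macrophage markers.

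**Figure D1:**
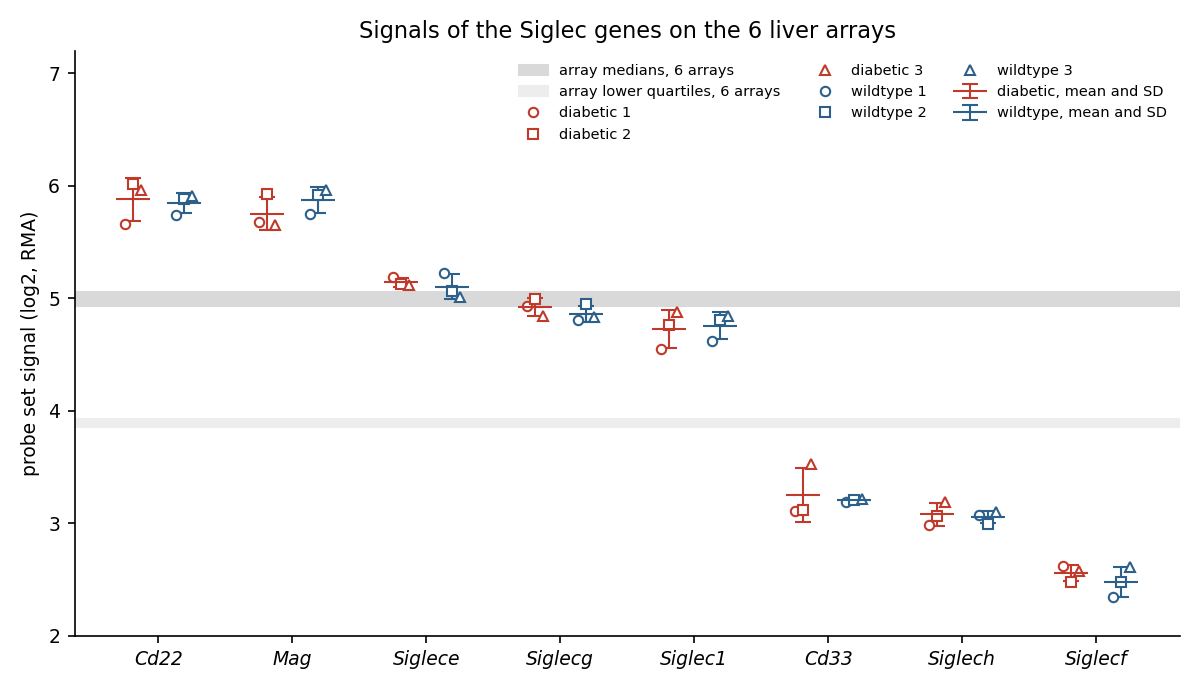
Log2 signals of the 8 Siglec genes (y axis; main probe set of each gene, ordered by mean on the x axis) on the 3 diabetic arrays (red, left of each pair) and the 3 wildtype arrays (blue, right), with mean and SD; the grey bands span the medians and the lower quartiles of the 6 arrays. Cd22 and Mag sit above the medians, Cd33, Siglech and Siglecf sit below the lower quartiles, and the groups overlap for every gene.

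Among the B cell receptors, Cd22 had signals of 5.66, 6.02 and 5.96 in diabetic livers, against 5.74, 5.88 and 5.91 in wildtype livers. The lowest array of each group was the one numbered 1, and the wildtype values lay inside the diabetic range. The means were 5.88 ± 0.19 in diabetic and 5.85 ± 0.09 in wildtype livers (SD, n = 3 each), a difference of 0.03 with a standard error (SE) of 0.12 and a 95% confidence interval of -0.25 to 0.32 (limma adjusted p = 0.99). It was -0.03 without diabetic 2, -0.0079 without diabetic 3 and -0.02 without wildtype 1. Siglecg, the other B cell member, had signals of 4.93, 4.99 and 4.84 in diabetic livers, against 4.80, 4.94 and 4.83 in wildtype livers. Its groups overlapped, and its difference of 0.06 (SE 0.08, interval -0.14 to 0.26; limma adjusted p = 0.975) was smaller than the SD of either group.

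The macrophage receptor Siglec1 had signals of 4.55, 4.76 and 4.88 in diabetic livers, against 4.62, 4.81 and 4.84 in wildtype livers. Here too both arrays numbered 1 were the lowest of their group and both numbered 3 the highest. The difference of -0.03 (SE 0.11, interval -0.30 to 0.25; limma adjusted p = 0.99) was a small part of the spread inside each group, whose SD was 0.17 in diabetic and 0.12 in wildtype livers. It became 0.06 without diabetic 1, 0.01 without wildtype 3 and 0.0024 after quantile normalization, so its sign was not settled.

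Among the myeloid members, Siglece had signals of 5.19, 5.12 and 5.11 in diabetic livers, against 5.23, 5.06 and 5.01 in wildtype livers. The diabetic arrays lay within the wildtype range, and the difference was 0.04 (SE 0.09, interval -0.16 to 0.25; limma adjusted p = 0.99), or -0.0021 without wildtype 3. Cd33 had signals of 3.11, 3.11 and 3.53 in diabetic livers, against 3.19, 3.21 and 3.21 in wildtype livers. Only diabetic 3 lay above the wildtype arrays, while the other diabetic arrays lay below them. The Cd33 difference was 0.05 (SE 0.13, interval -0.26 to 0.35; limma adjusted p = 0.99) with all arrays and -0.09 without diabetic 3 (limma adjusted p = 0.964), so 1 array decided its sign.

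Siglecf, the eosinophil receptor, had signals of 2.62, 2.48 and 2.57 in diabetic livers, against 2.35, 2.47 and 2.61 in wildtype livers. By main probe sets, those of highest mean, it was the dimmest member, between the 1.32 and the 4.94 percentile of its arrays. Its difference of 0.08 (SE 0.10, interval -0.15 to 0.31, limma adjusted p = 0.966) was 0.01 without wildtype 1. Siglech had its highest signals at a probe set whose x suffix marks probes that may also bind other transcripts, with 2.98, 3.06 and 3.19 in diabetic livers, against 3.07, 2.99 and 3.10 in wildtype livers. Its difference was 0.02 there (interval -0.18 to 0.23), and -0.03 without diabetic 3 or -0.0072 without wildtype 2.

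The other Siglech probe sets were dimmer still. The one with an s suffix, which marks probes shared between transcripts, had 2.42, 2.44 and 2.52 in diabetic livers, against 2.38, 2.54 and 2.46 in wildtype livers. The one with no such mark had 2.13, 2.25 and 2.30 in diabetic livers, against 2.24, 2.22 and 2.16 in wildtype livers, which put it below the 0.843 percentile on every array. Their differences were 0.0013 and 0.02, and the 3 probe sets thus gave the same picture of a signal near the bottom of the scale with overlapping groups. The sign at each of them turned without diabetic 3, to -0.03 at the s probe set and -0.02 at the unmarked one. It also turned without wildtype 1 at the s probe set, to -0.04, and without wildtype 3 at the unmarked one, to -0.0020.

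Mag, the myelin protein, had signals of 5.68, 5.93 and 5.66 in diabetic livers, against 5.75, 5.92 and 5.96 in wildtype livers. Diabetic 1 and 3 lay below all wildtype arrays and diabetic 2 among them. The means were 5.75 ± 0.15 in diabetic and 5.88 ± 0.11 in wildtype livers (SD, n = 3 each). The difference of -0.12 (SE 0.11, interval -0.38 to 0.14; limma adjusted p = 0.942) was the largest in size among the members and did not pass. It kept its sign without any 1 array, between -0.21 without diabetic 2 and -0.07 without diabetic 3. No other myelin gene of the marker list was among the named probe sets, so the signal could not be set beside another marker of these cells.

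Of the 10 Siglec probe sets 0 passed an adjusted p of 0.05 in limma, where 0.321% of all 1246 probe sets did (4, all higher in diabetic liver). At an unadjusted p under 0.05 the Siglecs again counted 0, beside 2.97% of all probe sets, and the groups were free of overlap for 0 Siglec probe sets, beside 7.87% of all. With so few probe sets, counts of 0 are near these background shares. Of the 8 genes, 6 had higher and 2 lower means in diabetic liver, with a median difference of 0.04, beside 0.0020 over all probe sets. Limma with the replicate number as a block also called 0 Siglec probe sets, and 0 of all probe sets. That fit gave 0 Siglecs at an unadjusted p under 0.05, beside 4.33% of all probe sets.

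The intervals say which changes these arrays could still hide. All 8 excluded a difference of 0.5 on the log2 scale in either direction, with and without the replicate block, as did 890 of all 1246 probe sets. As folds, diabetic over wildtype, they reached down to 0.766 for Mag and up to 1.28 for Cd33. Intervals that excluded a difference of 0.25 were found for 2 of 8 genes, or 3 with the block, so smaller shifts stayed within the error. No detection call was used, so no member was shown to lie above background, and a signal near background can hide a change in RNA. A narrow interval carries less for that reason, most of all for the dim members Cd33, Siglecf and Siglech.

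**Figure D2:**
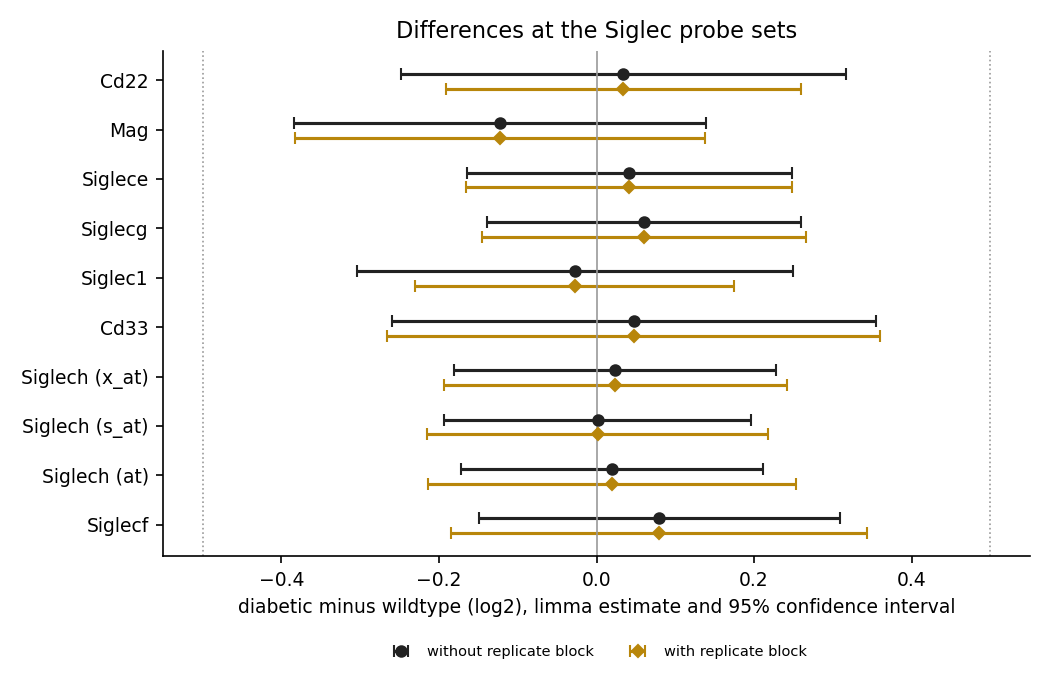
Difference of diabetic minus wildtype on the log2 scale (x axis) for the 10 Siglec probe sets (rows; the suffix tells the 3 Siglech probe sets apart), with limma's 95% confidence interval without (black) and with (gold) the replicate number as a block; dotted lines mark a difference of 0.5 in each direction. Every interval crosses 0 and none reaches a dotted line.

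The order of the signals was Cd22, Mag, Siglece, Siglecg, Siglec1, Cd33, Siglech and Siglecf, by mean over the 6 arrays. The brightness of a probe set depends on its probes as well as on the RNA, so this is an order of signals and not of RNA amounts. Cd22 and Mag, at 5.86 and 5.81, could not be told apart, with Cd22 higher on 2 of 6 arrays. Siglecg and Siglec1, at 4.89 and 4.74, overlapped in range, and Siglecg was higher on 4 of 6 arrays. Cd33 and Siglech, at 3.23 and 3.07, overlapped in range although Cd33 was higher on 6 of 6 arrays. The ranges of the other neighbours did not overlap, and the widest step was from Siglec1 to Cd33. The place of Siglech rests on its x probe set, whose probes may also bind other transcripts. Its s and unmarked probe sets had means of 2.46 and 2.22, below Siglecf at 2.52.

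The spread of the members was unequal. The SD over the 6 arrays was below the median of all probe sets, 0.14, for every main probe set except that of Cd33, at 0.15. Within groups, Siglecg, Siglech and Siglece had pooled SDs of 0.08, which ranked between the 15.4 and the 20.3 percentile of all probe sets. Cd22, Siglec1 and Cd33 varied most, with pooled SDs between 0.15 and 0.17, at the 52.7 percentile for Siglec1, 54.8 for Cd22 and 61.0 for Cd33.

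For some members, such as Siglec1 and Cd22, the arrays of a number deviated from their group means in the same direction in both groups. Others went opposite ways at a number, as Mag at number 3 (-0.10 in diabetic and 0.09 in wildtype livers). Siglecf did so at number 1 (0.06 in diabetic and -0.13 in wildtype livers). The array medians also followed the number. In diabetic and wildtype livers they were lowest on the arrays numbered 1 (4.95 and 4.93) and highest on those numbered 2 (5.03 and 5.06). The part of such an array-wide shift in the member values was not tested. For Siglec1 the arrays numbered 1 stood at -0.18 in diabetic and -0.14 in wildtype livers relative to their group means, and those numbered 3 at 0.15 and 0.08. For Cd22 the arrays numbered 1 stood at -0.22 in diabetic and -0.10 in wildtype livers. Over the 8 genes and 3 numbers, the diabetic and wildtype arrays of a number deviated in the same direction in 19 of 24 cases. That is 79.2%, beside 55.4% over all probe sets. The cases are not independent, since all genes share the same arrays and each deviation was taken from the mean of its own group. Whether the members followed the replicate number more than other probe sets was not tested. With the block the SE fell to 0.07 for Siglec1, against 0.11 without it, and to 0.08 for Cd22, against 0.12, and neither gene was called (limma adjusted p = 0.973 for each). These 2 genes were picked for their pattern: the interval was narrower with the block for 3 of 8 members, the other being Mag, and wider for the other 5.

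Cd33 was the member for which single arrays could be followed furthest. The 3 named genes whose log2 profile over the 6 arrays was most like it were Cd44, the hyaluronan receptor of leukocytes and other cells (Pearson r = 0.989 over 6 arrays), the chemokine receptor Ccr1 (0.952) and Csf1r, the growth factor receptor of macrophages (0.941). These likenesses are descriptions, picked as the highest among all named genes, and diabetic 3 was the highest array for each. Ccr1 was near the bottom of the scale, with signals between 2.53 and 2.68 on the 6 arrays, so its likeness rests on small differences. Cd44 had signals of 3.33, 3.34 and 4.32 in diabetic livers, against 3.48, 3.43 and 3.60 in wildtype livers.

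Of 16 listed macrophage markers only 7 were measured. Most of these were high on both arrays numbered 3, and most of all on diabetic 3. The array numbered 3 was the highest of the diabetic group for 6 of 7 markers and of the wildtype group for 5 of 7. Csf1r had signals of 6.23, 6.28 and 7.50 in diabetic livers, against 6.44, 6.31 and 6.85 in wildtype livers. Adgre1, which encodes F4/80, had 3.81, 3.89 and 5.18 in diabetic livers, against 3.83, 3.81 and 4.32 in wildtype livers. Lgals3, a galectin of activated macrophages, had 5.37, 5.56 and 6.05 in diabetic livers, against 5.47, 5.44 and 5.68 in wildtype livers.

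Diabetic 3 was the highest array for 5 of 7 measured macrophage markers and for 3 of 8 Siglecs, beside 20.3% of all probe sets. Diabetic 1 was the lowest array for 6 of 7 of these markers and for 4 of 8 Siglecs, beside 19.8% of all probe sets. The markers not highest on diabetic 3 were Clec4f, a lectin of Kupffer cells, which was highest on diabetic 2, and Cd74, the invariant chain of antigen presentation, which was highest on wildtype 3. The mean of the 7 markers ranged from 5.40 to 6.18 on diabetic arrays and from 5.53 to 5.92 on wildtype arrays, and their summed linear signal from 391 to 679 and from 443 to 645. Siglec1, itself a macrophage receptor, was 0.16 above the mean of the other arrays on diabetic 3, where Cd33 was 0.36, Csf1r 1.08 and Adgre1 1.25 above it. The part of macrophage content in the Cd33 value was not tested.

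**Figure D3:**
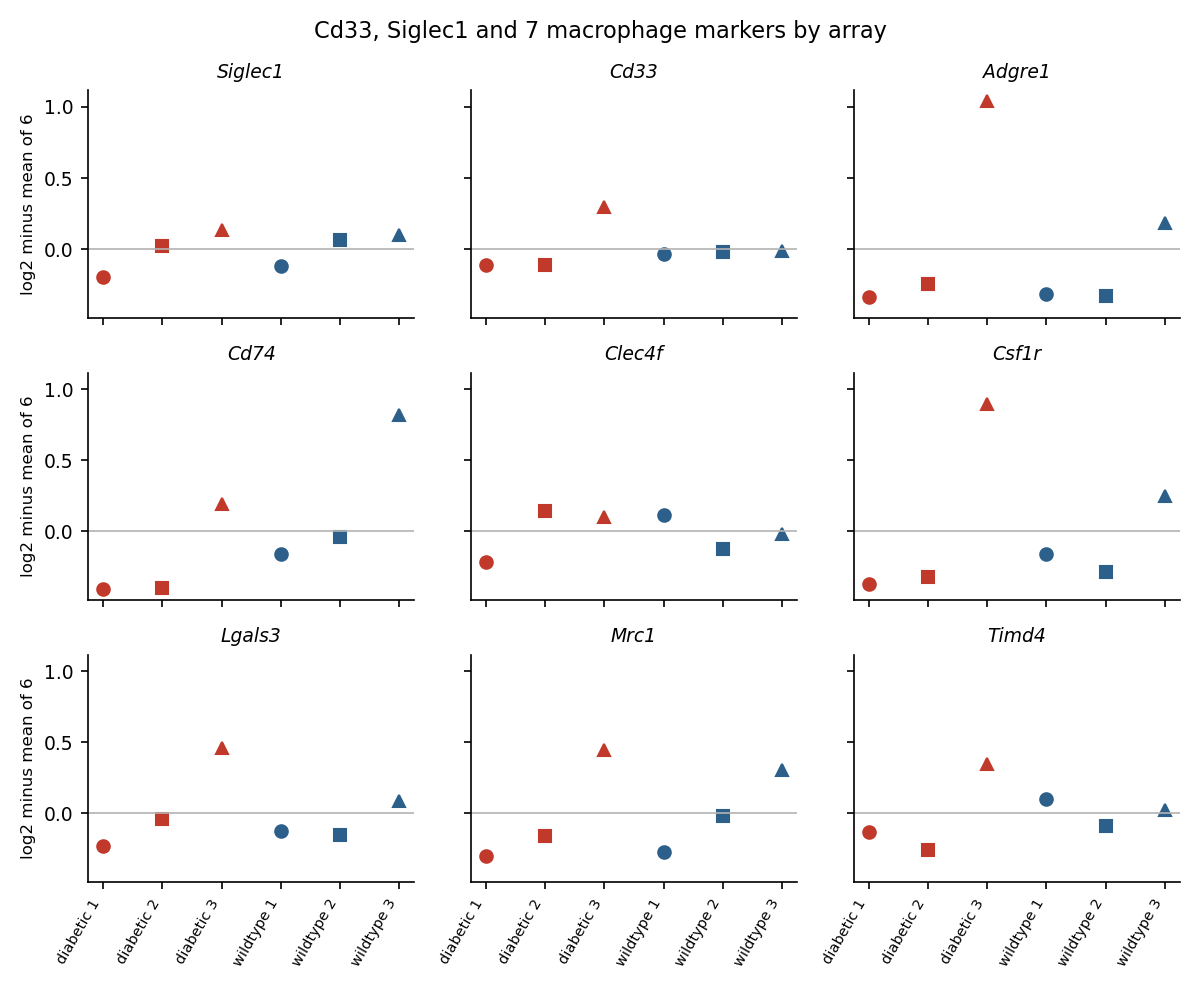
Log2 signal minus the gene's mean over the 6 arrays (y axis) by array (x axis; red diabetic, blue wildtype; circle, square and triangle for numbers 1, 2 and 3) for Siglec1, Cd33 and the 7 measured macrophage markers. Diabetic 3 is highest for Cd33, Siglec1, Adgre1, Csf1r, Lgals3, Mrc1 and Timd4, but not for Cd74 or Clec4f.

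Between the groups, 4 of the 7 macrophage markers had higher and 3 lower means in diabetic liver and 0 were called, with a median difference of 0.02 that became -0.21 without diabetic 3 and -0.02 without wildtype 2. The largest differences were -0.41 for Cd74 and 0.31 for Adgre1 (limma adjusted p = 0.928 and 0.974), and neither was stable. Adgre1 gave -0.14 without diabetic 3, and Cd74 gave -0.61 without diabetic 3 and -0.11 without wildtype 3. Csf1r differed by 0.14 and Lgals3 by 0.13, or by -0.28 and -0.07 without diabetic 3. Leaving out wildtype 3 moved these values the other way, to 0.48 for Adgre1, 0.29 for Csf1r and 0.20 for Lgals3.

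Markers of other cells that carry Siglecs were mostly below the median signal. Of 8 listed B cell markers 3 were measured, all below the median of all probe sets, and 0 were called. Cxcr5, the chemokine receptor that guides B cells to follicles, had 4.51, 4.68 and 4.62 in diabetic livers, against 4.76, 5.05 and 5.31 in wildtype livers. Its groups did not overlap, but the difference of -0.44 did not pass (limma adjusted p = 0.928). Cd72, an inhibitory B cell receptor, differed by 0.17 and the IgE receptor Fcer2a by -0.13, so the 3 markers did not share a direction. Beside them, Cd22 and Siglecg differed by 0.03 and 0.06.

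The 6 measured neutrophil and eosinophil markers had 4 higher and 2 lower means, 0 called and a median difference of 0.07, between 0.02 without wildtype 3 and 0.105 without wildtype 1; 2 of the 6 lay above the median of all probe sets. The eosinophil chemokine receptor Ccr3, at 2.92 ± 0.11 in diabetic and 2.85 ± 0.10 in wildtype livers (SD, n = 3 each), was dim as well, with a difference of 0.07. The neutrophil chemokine receptors Cxcr2 and Cxcr1 differed by -0.29 and 0.09, and Cxcr2 gave -0.03 without wildtype 2. This Cxcr2 value came from an x probe set (SE 0.24). A dimmer Cxcr2 probe set without such a mark gave -0.34 (SE 0.10), with an unadjusted p of 0.0107 and an adjusted p of 0.928 in limma. Plasmacytoid dendritic cells were covered by 2 markers that are not exclusive to them, Ccr9 with a difference of 0.06 and Cd209a with 0.02, beside 0.02 for Siglech. The Ccr9 value came from an x probe set, and a dimmer unmarked one gave 0.13.

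Of the T and NK cell markers 3 were measured and 0 called, with differences of 0.19 for the activation antigen Cd69, whose groups did not overlap, 0.10 for Klrd1 and -0.0026 for Klrk1, both NK receptor genes. Among 7 endothelial markers 5 had lower and 2 higher means and 0 were called. Their median difference was -0.22, or -0.06 without diabetic 2, -0.08 without wildtype 3 and -0.34 without diabetic 3. Selp, which is P-selectin, differed by -0.30, Icam2 by -0.22, the sinusoidal lectin Clec4g by -0.25 and Icam1 by -0.30, each with overlapping groups. Of 8 hepatocyte genes 1 was called, the plasma lectin Mbl2, with a difference of 1.03 (limma adjusted p = 0.0412; 0.142 with the replicate block). Igfals, Mbl1 and Igfbp1 differed by -0.61, 0.27 and 2.74 and did not pass. Igfbp1 had 10.65, 8.90 and 11.52 in diabetic livers, against 6.26, 6.50 and 10.09 in wildtype livers. Its groups overlapped (SE 1.15), and its difference ran from 2.06 to 3.98 without 1 array. The Igfals groups did not overlap, with an unadjusted p of 0.0126 and an adjusted p of 0.928 in limma. The hepatocyte median was 0.0069, or -0.03 without diabetic 1 and -0.06 without wildtype 1.

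The sugar that Siglecs bind is made in the cell, activated and carried into the Golgi before it is added to glycans. Of 7 measured genes of sialic acid supply 6 lay above the median of all probe sets, 3 had higher and 4 lower means, and 0 were called. Gne, which makes the sialic acid precursor, had 8.95, 8.94 and 9.63 in diabetic livers, against 8.69, 8.85 and 9.43 in wildtype livers. Both arrays numbered 3 were the highest of their group, and the difference of 0.18 did not pass (limma adjusted p = 0.975). Cmas, which activates sialic acid as its CMP form, differed by -0.14, the sialic acid lyase gene Npl by 0.09 and Renbp by -0.14. The median over the 7 was -0.04, and it was 0.0082, 0.02 and 0.08 without diabetic 2, wildtype 1 and wildtype 2.

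The 13 measured sialyltransferases that add terminal sialic acid in alpha-2,3 or alpha-2,6 linkage had 7 higher and 6 lower means and 0 called, with a median of 0.0056. That median was negative without diabetic 1, diabetic 2, diabetic 3 or wildtype 3, the lowest being -0.10 without wildtype 3. St6galnac3 had 3.58, 3.69 and 3.56 in diabetic livers, against 3.98, 3.89 and 3.77 in wildtype livers. Its groups did not overlap, and its difference of -0.27 had an unadjusted p of 0.0196 and an adjusted p of 0.928 in limma. St6galnac2 differed by -0.25, also without overlap, St3gal3 by -0.24 and St6galnac5 by 0.11. St6gal1, the maker of the alpha-2,6 linkage that Cd22 binds, differed by -0.06, at 9.64 ± 0.21 in diabetic and 9.69 ± 0.30 in wildtype livers (SD, n = 3 each).

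The 6 transferases that add sialic acid to sialic acid had 5 higher and 1 lower means and 0 called, with a median of 0.08, between 0.02 without wildtype 3 and 0.14 without wildtype 2. St8sia4 differed by 0.18, St8sia2 by -0.20, St8sia1 by 0.09 and St8sia3 by 0.10. Sialidases remove the sugar, and 3 were measured with 0 called. The lysosomal Neu1 had 8.07, 8.09 and 8.05 in diabetic livers, against 7.88, 7.93 and 7.75 in wildtype livers. The groups did not overlap, the diabetic arrays being the higher, and the difference of 0.21 (SE 0.08) had an unadjusted p of 0.0358 and an adjusted p of 0.928 in limma. Neu2 differed by 0.34 with overlapping groups, and Neu3, which acts on gangliosides, by -0.02. Over the 39 genes that the naming rule takes from the marker and pathway lists, 30 of the differences turned sign or moved by over 1.5 times when some 1 array was left out, and 8 turned sign.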

How the data were processed

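Liver RNA of 3 diabetic and 3 wildtype mice was measured on 6 Affymetrix arrays. The values deposited by the authors were treated as log2 signals from their range of 2.03 to 13.45; they were made with RMA, per the submitters' processing notes, with version and settings not given in the sources used here. RMA equalises arrays, which can hide a shift common to most of the array. The array medians still differed, between 4.93 and 5.06. Of 1246 probe sets, 984 carried a RefSeq accession and 963 were named through RefSeq genes of GRCm38.p6, used for names and gene order; 283 stayed unnamed. A gene with several probe sets was represented by the one with the highest mean over the 6 arrays.

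The groups were compared, as diabetic minus wildtype, with limma 3.58.1 in R 4.3.3 (lmFit, eBayes; 4 residual and 2.44 prior degrees of freedom) on all probe sets, with Benjamini-Hochberg adjustment and a threshold of 0.05. There was no filter and no detection call, and precision is limited by the small number of arrays. Scripts were tested on simulated data. Members and gene lists were chosen with earlier results of these data known. Named were all members, the 4 genes of smallest p in each list (all in lists with under 6 measured), and the 3 genes most like a member whose SD exceeded the median; St6gal1, Siglec15, Clec4f, Mrc1, Timd4 and the array of diabetic 3 were singled out after values were seen. 1 gene that the rule names is not reported here. Lists of sialic acid O-acetylation, Siglec signalling partners and myelinating glia had 0 named probe sets.

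Between the diabetic and the wildtype array of each number, deviations from the group mean had a correlation across probe sets of 0.397 (number 1), 0.138 (number 2) and 0.162 (number 3). All lay above the limit of 0.1, so the replicate number was fitted as a block in an alternative. The main fit did not pair the arrays, and values given without mention of the block come from it.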

Additional observations from a re-analysis of the deposited data

How the results depend on the processing

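The count of 0 called Siglec probe sets was the same in all 12 refits and at an adjusted p of 0.10, and the smallest adjusted p of a main Siglec probe set over the refits was 0.777. The 4 calls among all probe sets became 0 with the replicate block and with eBayes trend and robust, and between 0 and 1 without 1 array; the hepatocyte call (Mbl2) became 0 in the same 2 fits and between 0 and 1 without 1 array. The block changed no other call. Signs turned for differences that were not called. After quantile normalization Siglec1 gave 0.0024 and the s and unmarked Siglech probe sets -0.055 and -0.031. Without 1 array the difference ran from -0.035 to 0.14 for Cd22, -0.091 to 0.12 for Cd33, -0.10 to 0.064 for Siglec1, -0.0021 to 0.10 for Siglece, and -0.030 to 0.071, -0.041 to 0.043 and -0.016 to 0.069 at the x, s and unmarked Siglech probe sets. The cause was not tested. Mag, Siglecf and Siglecg kept their sign throughout. List medians ran from -0.34 to -0.064 for endothelial and -0.21 to 0.14 for macrophage markers and from -0.10 to 0.016 for terminal sialyltransferases. Leaving out probe sets under the 25th percentile removed Cd33, Siglecf, Siglech and the T and NK cell list, which then had no value, and left fewer polysialyl and disialyl transferases, with a median of -0.089. No detection call was used, so whether these dim genes lie above background was not tested.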

Other observations

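Siglec15, a sialic acid-binding receptor known from osteoclasts and macrophages, is on the array but not among the 8 genes above. Its signals were 5.29, 5.47 and 5.29 in diabetic livers, against 5.16, 5.15 and 5.36 in wildtype livers. The groups overlapped, and the difference of 0.12 (SE 0.10) did not pass (limma adjusted p = 0.928).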
